A study of Homo sapiens with 20 samples.

Results

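The 40 autophagy genes described here are the genes for the machinery that builds the autophagosome, along with DRAM1 and its relative DRAM2, several cargo receptors and the transcription factors TFEB and TFE3. The list was set by gene name, with earlier results of these data known, and all 40 were among the 27697 genes that could be tested. RNA-seq had been performed on NGP cells, a human neuroblastoma cell line that carries amplified MYCN, grown in culture vessels with 6 wells. Positions are given on GRCh38 as in GENCODE release 44. One condition was nutlin-3, given as a racemic mixture at 8 µM (10 samples), and the other was ethanol, the vehicle (10 samples). The time of treatment is not given in the sources used here, and all samples come from a single line. Nutlin-3 binds MDM2, the ubiquitin ligase of p53, and keeps it away from p53. Poly(A) RNA was sequenced as stranded read pairs, and the samples held between 14455477 and 19532971 estimated read pairs each.

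Macroautophagy encloses cytoplasm in a double membrane and delivers it to the lysosome. The ULK1 complex starts the process, a lipid kinase complex around PIK3C3 and BECN1 marks the membrane, ATG9 and ATG2 supply it with lipid, and 2 conjugation systems attach proteins of the ATG8 family (LC3 and GABARAP) to it, where cargo receptors bind. DRAM1 is a lysosomal membrane protein encoded by a known p53 target gene, and TFEB and TFE3 switch on genes of autophagy and of the lysosome. All of these steps are controlled strongly at the level of the protein, through phosphorylation, lipidation and turnover, which RNA-seq does not measure.

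MDM2, used as a check of the treatment, had a median of 5659 CPM in nutlin and was 22.7-fold higher than in vehicle, where CPM are estimated counts per 1000000 after TMM normalization. All 8 markers of adrenergic neuroblastoma cells had a median above 10 TPM (transcripts per 1000000, a level per length). The summed level of 5 leukocyte markers was between 1.70 and 3.76 TPM in vehicle and between 5.47 and 8.05 TPM in nutlin, and no single marker of leukocytes, endothelium or fibroblasts reached 10 TPM in any sample. The leukocyte marker CD3E was at 0 in all samples. The part of these low markers in the results was not tested.

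For WIPI1, DRAM1 and ATG4C, a stretch of up to 250 bases directly before the start site is shown, because these 3 genes changed by at least 2-fold and have a single start in the RefSeq table (GRCh38.p14). WIPI1 is shown without the bases that fall in an exon of the gene, and MAP1LC3B, which meets the same rule, is not shown because an annotated exon of the gene covers its whole stretch.
WIPI1, chr17:68457514-68457746, minus strand: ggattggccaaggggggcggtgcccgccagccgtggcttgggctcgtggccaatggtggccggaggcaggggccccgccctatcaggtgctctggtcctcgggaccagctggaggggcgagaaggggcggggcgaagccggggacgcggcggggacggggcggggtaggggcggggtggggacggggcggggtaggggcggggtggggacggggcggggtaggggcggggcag
DRAM1, chr12:101877330-101877579, plus strand: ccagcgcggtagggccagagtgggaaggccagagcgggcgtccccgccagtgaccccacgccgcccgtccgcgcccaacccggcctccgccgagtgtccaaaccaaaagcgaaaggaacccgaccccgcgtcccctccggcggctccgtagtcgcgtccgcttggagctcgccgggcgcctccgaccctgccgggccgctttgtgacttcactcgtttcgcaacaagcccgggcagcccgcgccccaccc
ATG4C, chr1:62783882-62784131, plus strand: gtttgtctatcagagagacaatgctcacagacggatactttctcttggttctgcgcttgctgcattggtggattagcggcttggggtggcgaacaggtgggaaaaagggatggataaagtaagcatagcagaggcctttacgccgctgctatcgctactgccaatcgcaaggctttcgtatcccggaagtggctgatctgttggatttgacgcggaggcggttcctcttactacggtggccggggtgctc
None of the 3 stretches holds CACGTG, the E-box, so all letters are in lower case. The E-box and its longer form TCACGTGA, the core of the CLEAR element, are the sites that TFEB and TFE3 are known to bind. Both strands were searched in the 250 bases before and the 50 bases after each start, for the 35 genes with an entry in the table. An entry was missing for UVRAG, MAP1LC3A, ATG4D, RB1CC1 and BNIP3L. CACGTG was found in 3 of the 35 genes (8.57%), against 8.78% of all 27305 gene symbols in the table. The sites are shown with 10 bases on either side and with CACGTG in capitals.
ATG3, chr3:112561942-112561967, minus strand: agtctagtgtCACGTGaggccccggt
BNIP3, chr10:131982042-131982067, minus strand: gcacgcgccgCACGTGccacacgcac
ATG14, chr14:55411836-55411861, minus strand: aacaaaatccCACGTGactggctctc
In ATG3 the site begins at position 6 after the start and is flanked by t and a, so that it is also a CLEAR core, which overlaps the E-box by definition. A further CACGTG of ATG3 begins at position -18. TCACGTGA was found in 1 of the 35 genes (2.86%), against 1.18% of all symbols. A p53 site of 2 half-sites with a spacer of at most 13 bases and at most 2 mismatches was found in 0 of the 35 genes, against 3.62% of all symbols. These are matches of letters within a window of 300 bases and say nothing about binding.

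With nutlin, 16 of the 40 genes rose and 18 fell at 5% FDR (edgeR quasi-likelihood F-test, Benjamini-Hochberg adjustment over all genes tested), and 6 did not pass the test. Among all genes tested, 32.3% rose and 26.5% fell, and among mRNAs, which all 40 genes are, 32.4% rose and 38.5% fell. The median LFC (log2 of nutlin over vehicle) of the 40 genes was -0.037, against -0.006 over all mRNAs and 0.189 over all genes. Only 4 genes rose by at least 2-fold (WIPI1, TFEB, MAP1LC3B and DRAM1) and 1 fell by at least 2-fold (ATG4C). The shares over all genes were 16.2% and 5.81%, and among the 17351 mRNAs 2441 rose and 1331 fell by at least 2-fold. Most changes were small. An absolute LFC below 0.5 was found for 25 of the 40 genes, against 8401 of 17351 mRNAs and 12455 of all 27697 genes. For 18 genes the CPM of the 10 nutlin samples did not overlap those of the 10 vehicle samples, against 28.8% of all genes tested and 40.2% of mRNAs, with 10 of the 18 higher and 8 lower in nutlin. In TPM, 12 of the 40 genes were without overlap, and no share over all genes is given for TPM. For single genes, overlap refers to CPM unless TPM or shares are named. CPM are relative to the whole library, so that a change in the RNA content of a cell, or in the share of cells that hold the RNA, cannot be told apart from a change in the gene. The labels give separate samples and the paper calls them biological replicates, so the errors below are the spread between such cultures of 1 line.

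Small changes depended on how transcripts of different length were counted. With an offset for the effective length of each gene in each sample, the calls of ULK2 (LFC 0.056), ATG9A, ATG2A, ATG16L2 and BNIP3L were lost, with adjusted p between 0.0588 and 0.695 (SQSTM1 is given with its values). With protein-coding transcripts only, ATG9A, ATG16L2, ATG4D and SQSTM1 were no longer called, with adjusted p between 0.0609 and 0.469.

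**Figure D1:**
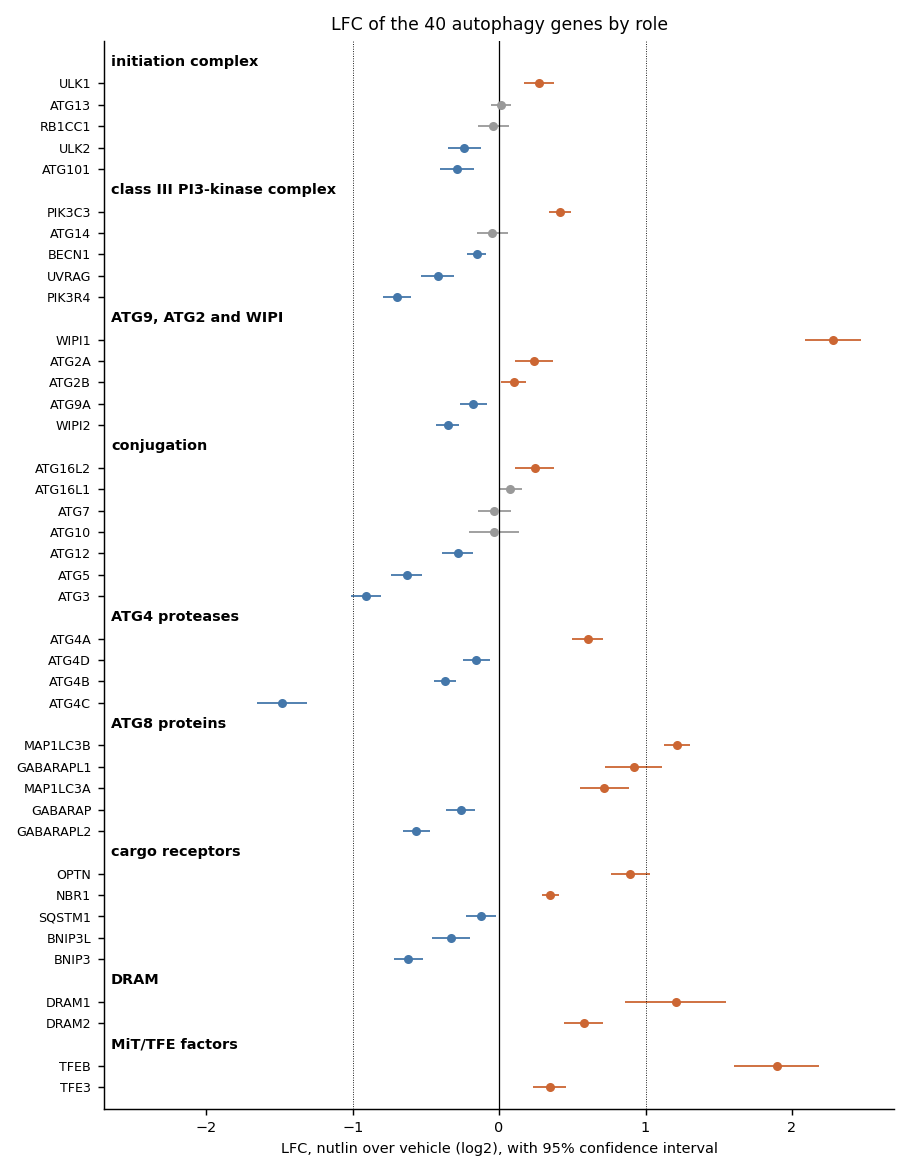
LFC of the 40 genes (points, log2 of nutlin over vehicle) with 95% confidence intervals (lines), grouped by role and sorted within each role, in orange for genes that rose, blue for genes that fell and grey for genes that were not called at 5% FDR. Dotted lines mark a 2-fold change, which 4 genes passed upwards and 1 downwards, and rises and falls stand side by side in 7 of the 9 roles.

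In the initiation complex, 1 gene rose, 2 fell and 2 did not pass the test. ULK1, the kinase that starts autophagy (chr12:131894622-131923150), had a lowest, median and highest value of 41.0, 47.9 and 52.0 CPM in vehicle and of 49.05, 58.9 and 65.1 CPM in nutlin. In 8 of the 10 nutlin samples the value was above every vehicle sample, so the conditions overlapped. The LFC of ULK1 was 0.27 (SE 0.049, adjusted p = 2.05e-05 by the edgeR quasi-likelihood test). Its paralogue ULK2 fell, with an LFC of -0.24 (SE 0.054), and so did ATG101, a subunit that stabilizes ATG13, with an LFC of -0.29 (SE 0.058). The scaffold RB1CC1, also called FIP200, had an LFC of -0.040 (95% interval -0.147 to 0.068) and the adaptor ATG13 one of 0.016 (-0.052 to 0.084). With the filterByExpr filter ATG13 was called higher (LFC 0.093, adjusted p = 0.00777).

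The class III PI3-kinase complex makes the lipid that recruits later factors, and its subunits moved in both directions, with 1 higher, 3 lower and 1 not called. PIK3C3, the catalytic subunit VPS34, rose with an LFC of 0.42 (SE 0.037) and no overlap of the conditions. PIK3R4, the scaffold VPS15 that binds PIK3C3 (chr3:130678934-130746829), had 36.5, 41.7 and 45.7 CPM as lowest, median and highest value in vehicle and 21.7, 25.5 and 28.7 CPM in nutlin. All 10 nutlin samples were below all vehicle samples. The LFC of PIK3R4 was -0.70 (SE 0.047, adjusted p = 6.09e-14 by edgeR). UVRAG, the subunit of the complex at endosomes, fell with an LFC of -0.42 (SE 0.055). BECN1, the shared regulatory subunit, fell by 0.15 on the log2 scale (SE 0.030), a small change that was called at a median of 88.6 CPM in vehicle and 79.9 CPM in nutlin. ATG14, which directs the complex to autophagosomes, had an LFC of -0.046 (95% interval -0.152 to 0.060).

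WIPI1 showed the largest change of the 40 genes. This protein binds the lipid made by PIK3C3 on the growing membrane, and its gene lies at chr17:68420948-68457513 on the minus strand. Its lowest, median and highest values were 1.86, 2.74 and 3.74 CPM in vehicle and 11.4, 13.8 and 16.5 CPM in nutlin. The lowest nutlin sample stood well above the highest vehicle sample. WIPI1 was 4.86-fold higher in nutlin, with an LFC of 2.28 (SE 0.095, adjusted p = 5.89e-19 by edgeR). Exons of ARSG on the opposite strand cover 24.4% of the exonic bases of WIPI1. ARSG, which encodes an arylsulfatase, rose as well, from a median of 4.57 CPM with an LFC of 0.998 (SE 0.083), and the strand option of the quantification is not given in the sources used here. The part of this overlap in the result was not tested. Exons on the opposite strand also cover parts of other members, among them ATG14 (FBXO34, 20.8%), ATG7 (VGLL4, 18.1%) and ATG4D (KRI1, 14.7%). For ATG10, RPS23 covers 6.87%, at a mean of 17330 estimated counts against 70.4 for ATG10. With protein-coding transcripts only, the LFC of WIPI1 was 2.71.

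WIPI2, the relative that recruits ATG16L1, went the other way and fell with an LFC of -0.35 (SE 0.040), also without overlap. ATG9A, the scramblase that travels in vesicles, fell with an LFC of -0.18 (SE 0.045), and 38.8% of its exonic bases are shared with an unnamed protein-coding gene on the same strand. The lipid transfer proteins ATG2A and ATG2B rose, with LFCs of 0.24 (SE 0.063) and 0.10 (SE 0.041). For ATG2B the adjusted p of 0.0418 lay close to the threshold, and it was between 0.0505 and 0.0633 without vehicle replicate 6 or 8 or nutlin replicate 1 or 7.

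Among the 7 genes of the conjugation systems, 1 rose, 3 fell and 3 did not pass the test. ATG3, the enzyme that passes ATG8 proteins on to the lipid (chr3:112532510-112562046, minus strand), had 38.1, 41.25 and 47.1 CPM as lowest, median and highest value in vehicle and 19.4, 21.9 and 26.2 CPM in nutlin. No nutlin sample reached the lowest vehicle sample. The LFC of ATG3 was -0.91 (SE 0.050, adjusted p = 5.00e-16 by edgeR), a level 1.88-fold lower in nutlin. ATG5 and ATG12, which are joined to each other in the second conjugate, fell by 0.63 (SE 0.051) and 0.28 (SE 0.051) on the log2 scale. ATG16L2, a paralogue of the ATG5 partner ATG16L1, rose with an LFC of 0.24 (SE 0.064). ATG7, the activating enzyme of both systems, had an LFC of -0.033 (95% interval -0.145 to 0.078), and ATG10, the enzyme that joins ATG12 to ATG5, one of -0.035 (-0.207 to 0.136). ATG16L1 had an LFC of 0.077 (SE 0.038) and an adjusted p of 0.0799, and it was called higher in 9 of the 20 fits without 1 sample (LFC up to 0.11). ATG16L1 was also called higher with DESeq2 size factors, the DESeq2 test and the filterByExpr filter (adjusted p = 0.00566, 0.00263 and 0.00038).

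The 4 ATG4 proteases cut ATG8 proteins before their conjugation and release them again from the lipid. ATG4C (chr1:62784132-62865516) had lowest, median and highest values of 8.81, 9.87 and 11.8 CPM in vehicle and of 2.76, 3.73 and 4.38 CPM in nutlin. All nutlin samples lay below all vehicle samples. The LFC was -1.48 (SE 0.084, adjusted p = 1.21e-15 by edgeR), which was the largest fall of the 40 genes. ATG4A rose with an LFC of 0.61 (SE 0.051), whereas ATG4B and ATG4D fell with LFCs of -0.37 (SE 0.037) and -0.15 (SE 0.044). The call of ATG4D was lost with the filterByExpr filter (LFC -0.078, adjusted p = 0.0978). In TPM, ATG4B and ATG4D made up most of the family in both conditions, with mean shares of 59.4% ± 1.9 and 30.9% ± 1.4 in vehicle and of 57.2% ± 2.6 and 31.6% ± 2.0 in nutlin (SD, n = 10). ATG4C held 4.66% ± 0.96 of the family in vehicle and 2.33% ± 0.63 in nutlin. These shares include transcripts that are not protein-coding. In vehicle, protein-coding transcripts held 51.2% of the ATG4B counts, 57.1% of ATG4D, 65.3% of ATG4A and 100% of ATG4C.

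The ATG8 family split by direction. MAP1LC3B, the most used marker of autophagosomes (chr16:87383953-87404779), had 54.8, 63.2 and 67.0 CPM as lowest, median and highest value in vehicle and 118.2, 145.5 and 154.9 CPM in nutlin. The conditions were far apart, with nutlin replicate 4 as the lowest of its condition. MAP1LC3B was 2.32-fold higher, with an LFC of 1.22 (SE 0.043, adjusted p = 1.45e-20 by edgeR). Its near copy MAP1LC3B2 held at most 15.9 estimated counts in any sample, against at least 745.4 for MAP1LC3B.

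GABARAPL1 (chr12:10212458-10223128) also rose. Its lowest, median and highest values were 4.69, 6.87 and 8.81 CPM in vehicle and 10.7, 13.2 and 15.4 CPM in nutlin, without overlap. The LFC was 0.92 (SE 0.096, adjusted p = 1.18e-09 by edgeR). MAP1LC3A (chr20:34546854-34560345) had 3.55, 4.455 and 5.44 CPM in vehicle and 6.03, 7.255 and 8.69 CPM in nutlin, again without overlap, and an LFC of 0.72 (SE 0.082, adjusted p = 7.77e-09). GABARAP and GABARAPL2, in contrast, fell with LFCs of -0.26 (SE 0.048) and -0.57 (SE 0.044). The genes that fell were the abundant ones. GABARAP had a median of 458.6 TPM in vehicle and 369.7 TPM in nutlin, the highest level of the 40 genes in both conditions, and GABARAPL2 followed with 134.3 and 90.1 TPM. The summed TPM of the 5 genes had a median of 626.7 in vehicle (585.6 to 662.2) and of 542.2 in nutlin (507.4 to 578.8). Within that sum, the mean share of MAP1LC3B was 4.30% ± 0.37 in vehicle and 11.8% ± 1.1 in nutlin, while GABARAP held 72.6% ± 0.8 and 67.9% ± 1.5 (SD, n = 10).

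**Figure D2:**
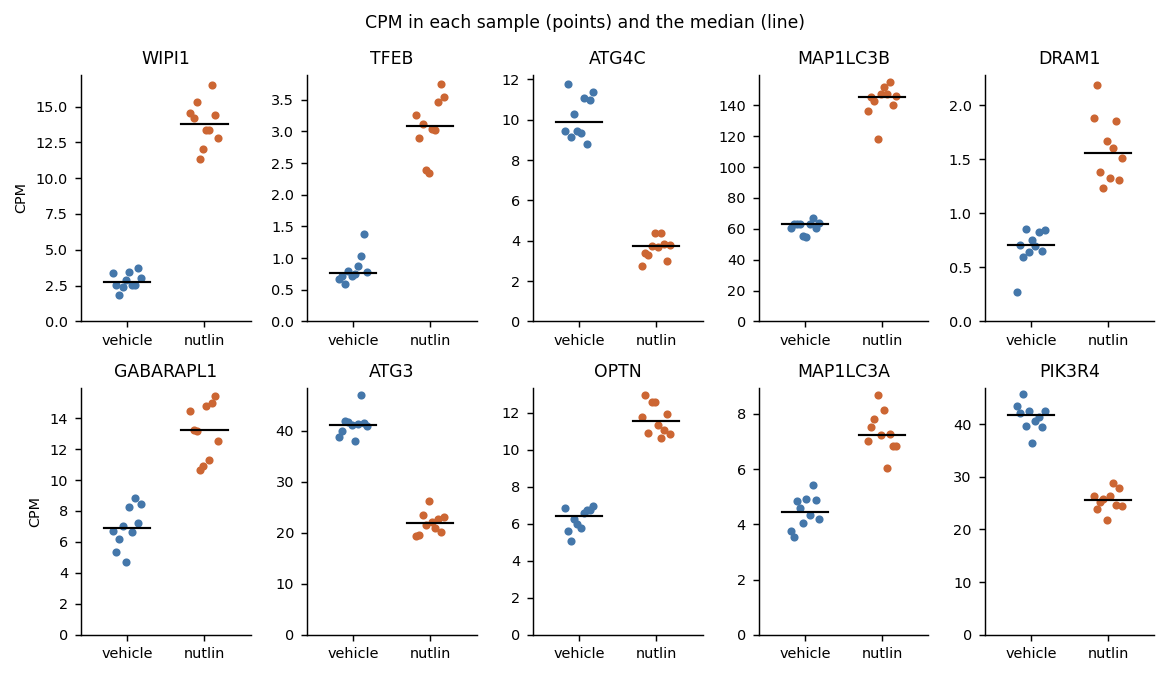
CPM in each sample (points, vertical axis from 0) and the median (line) of the 10 called genes with the largest absolute LFC, for 10 vehicle and 10 nutlin samples. The conditions do not overlap for any of the 10 genes, and DRAM1 and TFEB lie near or below 3 CPM.

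Of the 5 cargo receptors, 2 rose and 3 fell. OPTN, a receptor for ubiquitinated mitochondria and bacteria (chr10:13099449-13138308), had lowest, median and highest values of 5.05, 6.42 and 6.98 CPM in vehicle and of 10.65, 11.55 and 12.9 CPM in nutlin. No sample of one condition fell into the range of the other. The LFC was 0.90 (SE 0.066, adjusted p = 5.12e-13 by edgeR). NBR1, a receptor for ubiquitinated protein, rose with an LFC of 0.35 (SE 0.029). BNIP3 and BNIP3L, which mark mitochondria for removal, fell with LFCs of -0.62 (SE 0.049) and -0.33 (SE 0.064).

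SQSTM1, which encodes p62, the receptor most used to follow autophagic flux (chr5:179806398-179838078), had 78.3, 94.5 and 108.9 CPM in vehicle and 73.9, 90.7 and 92.7 CPM in nutlin. Only 1 nutlin sample lay below all vehicle samples. The LFC was -0.12 (SE 0.051, adjusted p = 0.0371 by edgeR). This call was lost in 15 of the 20 fits without 1 sample, with an adjusted p of 0.177 without vehicle replicate 10, and the direction turned with an offset for effective length (LFC 0.17, adjusted p = 0.0609). DESeq2 size factors, the DESeq2 test and the filterByExpr filter ended the call as well (adjusted p = 0.211, 0.234 and 0.411). In TPM, SQSTM1 had a median of 55.95 in vehicle and 62.8 in nutlin, and it was the only 1 of the 34 called genes whose TPM medians went against its LFC. MRNIP on the opposite strand covers 21.0% of its exonic bases and had an LFC of 0.059 (adjusted p = 0.199).

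Both DRAM genes rose. DRAM1 (chr12:101877580-102012130) was a gene of low abundance, with 0.2685, 0.7055 and 0.857 CPM as lowest, median and highest value in vehicle and 1.23, 1.56 and 2.19 CPM in nutlin. This amounts to between 4.36 and 14.1 estimated counts per vehicle sample and between 18.0 and 34.4 per nutlin sample, so the counting error of a single sample was large. Nevertheless, every nutlin sample was above every vehicle sample. The LFC was 1.21 with a wide error (SE 0.168, 95% interval 0.86 to 1.55, adjusted p = 3.00e-07 by edgeR). Per length, the conditions overlapped, between 0.772 and 2.185 TPM in vehicle and between 1.04 and 5.26 TPM in nutlin. With the offset for effective length the LFC was 0.86 (adjusted p = 0.00671), below 2-fold.

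DRAM2 (chr1:111117163-111140203, minus strand) is a lysosomal relative of DRAM1. It was the more abundant of the pair, with 14.1, 16.2 and 19.5 CPM in vehicle and 19.4, 24.3 and 28.75 CPM in nutlin, where 9 of the 10 nutlin samples exceeded all vehicle samples. Its LFC was 0.58 (SE 0.067, adjusted p = 8.92e-09 by edgeR). CEPT1, whose exons on the opposite strand cover 12.6% of those of DRAM2, had an LFC of 0.62 (SE 0.057). DRAM2 held 90.9% ± 2.5 of the summed TPM of both genes in vehicle and 89.6% ± 3.8 in nutlin (SD, n = 10).

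TFEB (chr6:41683978-41736259, minus strand) had the second largest rise, from a low level. Its lowest, median and highest values were 0.598, 0.766 and 1.38 CPM in vehicle and 2.345, 3.08 and 3.74 CPM in nutlin, or 9 to 17 and 35.0 to 57.2 estimated counts. The conditions were clearly apart. TFEB was 3.72-fold higher, with an LFC of 1.89 (SE 0.141, adjusted p = 7.35e-13 by edgeR). TFE3 (chrX:49028726-49043410) had 18.0, 19.7 and 22.8 CPM in vehicle and 21.7, 25.1 and 30.3 CPM in nutlin, with 9 of 10 nutlin samples above all vehicle samples. Its LFC was 0.34 (SE 0.056, adjusted p = 3.60e-06). In spite of the larger LFC, TFEB had the lowest median TPM of the 40 genes in both conditions, while DRAM1 was lower in CPM. TFEB held 6.78% ± 1.67 of the summed TPM of both factors in vehicle and 15.7% ± 2.8 in nutlin (SD, n = 10). Protein-coding transcripts held 99.2% of the TFEB counts and 50.8% of the TFE3 counts in vehicle.

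**Figure D3:**
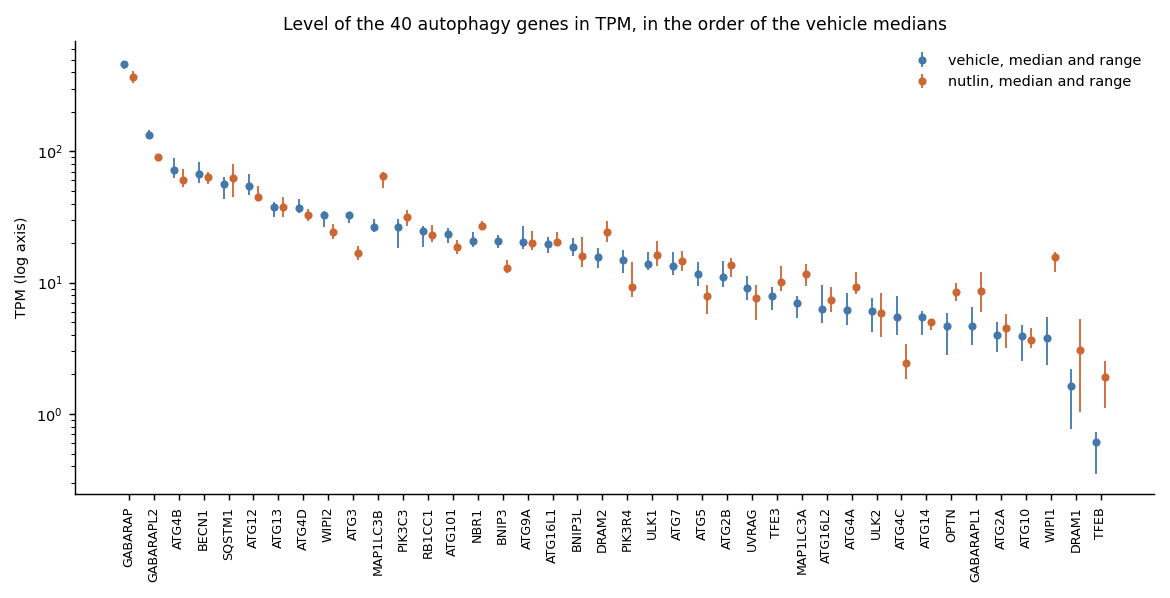
Level of each of the 40 genes in TPM (log axis), as the median (points) and range (lines) of 10 vehicle and 10 nutlin samples, in the order of the vehicle medians. GABARAP is highest and TFEB lowest in both conditions, and WIPI1 and MAP1LC3B move furthest up in the order.

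The levels in TPM, which are per length and can be set side by side between genes, spanned from a vehicle median of 0.613 for TFEB to 458.6 for GABARAP. They sum over all transcripts of a gene, including those with a retained intron or annotated for nonsense-mediated decay. With protein-coding transcripts only, 56 of 80 levels (40 genes in 2 conditions) moved by more than the SD. The ranks and the family shares carry this limit. A median above 10 TPM was found for 25 genes in vehicle and 26 in nutlin. Most steps in this order were smaller than the spread between samples. In vehicle the ranges of neighbouring genes overlapped for 34 of 39 pairs, and the 5 pairs without overlap were GABARAP over GABARAPL2, GABARAPL2 over ATG4B, ATG12 over ATG13, WIPI1 over DRAM1 and DRAM1 over TFEB. With nutlin, WIPI1 moved from rank 38 to rank 21 and MAP1LC3B from rank 11 to rank 3. In the other direction, ATG3 moved from rank 10 to rank 18, BNIP3 from rank 16 to rank 24 and ATG4C from rank 32 to rank 39. WIPI1 made up 10.3% ± 2.7 of the summed TPM of WIPI1 and WIPI2 in vehicle and 38.6% ± 2.7 in nutlin (SD, n = 10). Protein-coding transcripts held 48.7% of the WIPI1 counts in vehicle and 61.7% in nutlin, against 91.3% and 90.9% for WIPI2. The summed TPM of WIPI1 and WIPI2 overlapped between the conditions, with a median of 36.0 TPM in vehicle (29.5 to 39.6) and of 40.5 TPM in nutlin (33.6 to 43.3).

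**Figure D4:**
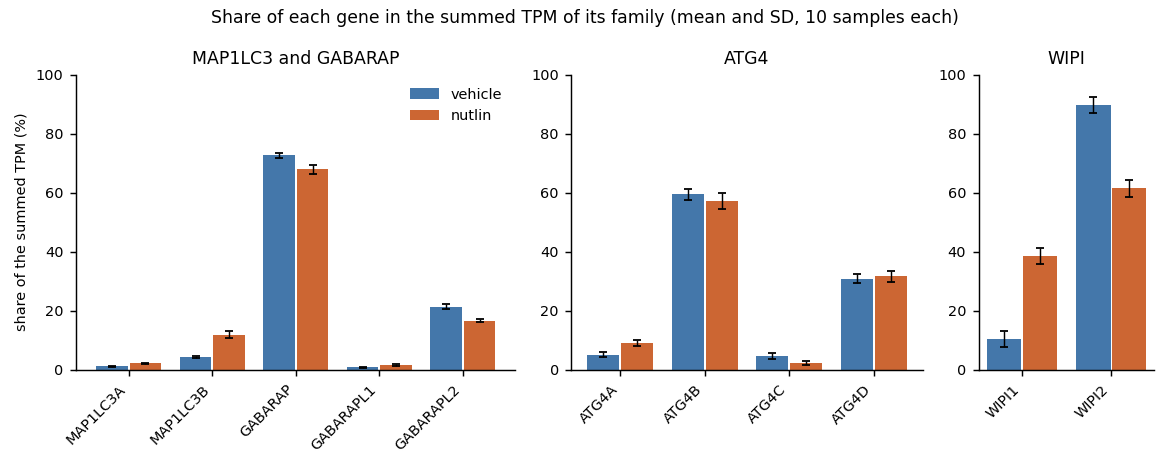
Share of each gene in the summed TPM of its family (percent, bars from 0), as mean and SD of 10 vehicle and 10 nutlin samples. WIPI1 makes up 10.3% of WIPI1 and WIPI2 in vehicle and 38.6% in nutlin, and MAP1LC3B 4.30% and 11.8% of the ATG8 genes, while GABARAP and ATG4B remain the largest of their families.

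The files hold an estimated count for every transcript, so the use of transcripts within a gene could be compared. Of the 38 genes with at least 2 transcripts kept, 5 (13.2%) changed in transcript usage at 5% FDR by the edgeR test (gene-level Simes p), against 20.2% of all genes tested. These were MAP1LC3B, SQSTM1, GABARAPL2, RB1CC1 and WIPI2, and in none of them did the share of the leading transcript move by 10 percentage points or more. Larger moves occurred in genes that were not called. The mean share of the leading transcript moved by 25.9 points in DRAM2 and by 11.85 points in ATG4A (Simes adjusted p = 0.434 and 0.738). WIPI2-203, a protein-coding transcript, held 19.7% ± 4.1 of the WIPI2 counts in vehicle and 10.1% ± 4.9 in nutlin (SD, n = 10), without overlap of the conditions. SQSTM1-204, a transcript annotated for nonsense-mediated decay (NMD), rose from 0.42% ± 0.25 to 2.12% ± 0.70 of the SQSTM1 counts. For MAP1LC3B, the NMD transcript MAP1LC3B-203 rose from 0.084% ± 0.177 to 1.09% ± 0.36, again a small part of the gene. DRAM1 and TFEB held too few counts per transcript for this test.

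BECN1 and ATG12 were singled out after their values were seen. The protein-coding transcripts of BECN1 held 68.8% ± 2.3 of its counts in vehicle and 57.6% ± 2.6 in nutlin, and its transcripts with a retained intron 28.8% ± 2.3 and 39.6% ± 2.1 (SD, n = 10), without overlap in either case. The share of protein-coding transcripts of ATG12 was 64.7% ± 2.7 in vehicle and 55.2% ± 2.9 in nutlin, also without overlap. Neither gene was called by the Simes p (adjusted p = 0.161 and 0.173), while the gene-level F-test of the same fit called both (adjusted p = 0.0128 and 6.57e-05). The F-test called 10 of the 38 genes, and no share over all genes is given for it. GABARAPL1 had a mean share of NMD transcripts of 6.98% ± 4.11 in vehicle and 17.8% ± 4.3 in nutlin, with overlap. The assignment of read pairs to transcripts that share exons is an estimate, and its uncertainty is not part of these errors.

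**Figure D5:**
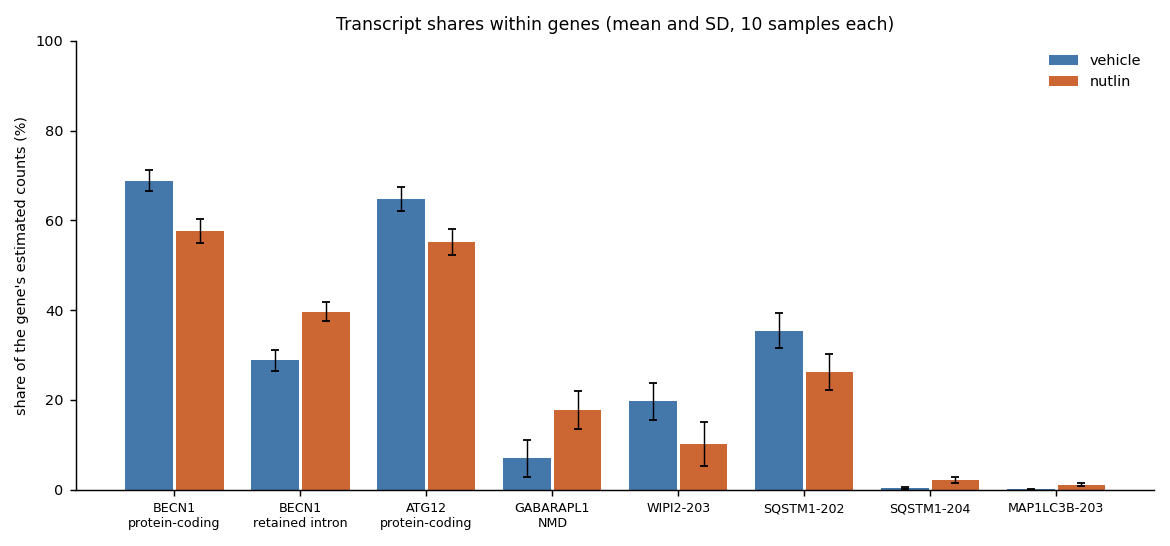
Share of single transcripts or transcript types in the estimated counts of their gene (percent, bars from 0), as mean and SD of 10 vehicle and 10 nutlin samples. The protein-coding share of BECN1 is 68.8% in vehicle and 57.6% in nutlin, and the shares of SQSTM1-204 and MAP1LC3B-203 remain below 3% on average.

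The genes around the machinery were read from 3 further lists. Among 35 other autophagy genes, 12 rose and 16 fell, with a median LFC of -0.071. HMGB1, a chromatin protein with a role in autophagy, fell most (LFC -2.21, SE 0.043), ahead of the mitophagy receptor FUNDC1 (-0.76) and its relative FUNDC2 (-0.63). The largest rises were those of MAP1LC3B2 (0.95, at under 16 counts per sample), the WIPI relative WDR45 (0.63) and the tether EPG5 (0.55). Of 49 lysosome genes, 15 rose and 27 fell, with a median LFC of -0.154. The membrane protein LAPTM4A (-1.57), the hydrolase GLA (-1.46) and the membrane protein LAMP2 (-0.98) fell most, while the proteases CTSZ (1.42, below 2 CPM) and CTSL (0.88) and the sialidase NEU1 (0.999) rose most. Of 31 genes of mTORC1 and AMPK, the kinases that sense nutrients and energy for autophagy, 6 rose and 13 fell, with a median LFC of -0.071. With the filterByExpr filter, 13 rose and 12 fell. That filter called 13123 of the 16338 genes it kept, against 16275 of 27697 in the main fit. The median shift of the LFC against the main fit was 0.077 with this filter. Both genes for the beta subunit of AMPK rose, PRKAB1 with an LFC of 1.03 (SE 0.042) and PRKAB2 with one of 1.21 (SE 0.042), followed by the mTOR inhibitor DEPTOR (0.65). RHEB, the GTPase that activates mTORC1, fell most (-1.11, SE 0.041), ahead of RRAGD (-0.95) and LAMTOR5 (-0.82), which hold mTORC1 at the lysosome. The counts of the main fit lie beside 32.4% higher and 38.5% lower over all mRNAs.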

How the data were processed

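RNA-seq of 20 samples of NGP cells was used, 10 per condition, grouped by the sample titles. Quantification by the authors used kallisto 0.42.4 and an index of Ensembl 85 transcripts (GRCh38). The deposited estimated counts are read pairs per transcript, without normalization. The deposited TPM values are scaled by the effective length, in bases, and library size.

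Transcripts were joined to genes by identifier with GENCODE release 44. Of 198968 transcripts, 191106 (96.05%) matched and 7862 were left out. The listed names DRAM3 and TMEM55B had no match. Between 95.7% and 96.8% of the estimated counts of a sample were on matched transcripts. Counts were summed per gene and rounded. Genes whose total was at least 1 in both conditions were fitted in edgeR 4.0.16 (R 4.3.3) with TMM factors and the condition as the only term. Calls are at 5% FDR (quasi-likelihood F-test, Benjamini-Hochberg adjustment over all genes). The SE of the LFC is its absolute value divided by the square root of F. Transcript usage was tested with diffSpliceDGE. Both were tested on simulated data with known changes. CPM are TMM-normalized estimated counts per 1000000, and TPM of a gene is the sum over its transcripts. Intervals and SE measure the spread between samples.

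The 40 genes and all lists were chosen with earlier results of these data known. Described with values per condition are the 10 called genes with the largest absolute LFC (fewer than 10 passed 2-fold) and DRAM1, DRAM2, ULK1, SQSTM1, MAP1LC3B, TFEB and TFE3, and from each further list the 3 with the highest and the 3 with the lowest LFC among those called. Alternatives were DESeq2 1.42.0 and its size factors, limma voom 3.58.1, filterByExpr, effective length, protein-coding transcripts only, 1% FDR, the replicate number as a block and leaving out each sample. Promoters are from RefSeq.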

Additional observations from a re-analysis of the deposited data

Results flagged for a closer look

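In 9 of 80 sets of 10 CPM values (40 genes in each of 2 conditions) the highest or lowest sample was further from the nearest other sample than Dixon's 95% critical value for the gap over the range allows. Chance gives about 1 in 20 sets. Nutlin replicate 6 was the highest of its condition for both GABARAP (232.4 CPM, next 204.5) and GABARAPL2 (86.3 CPM, next 76.2), and nutlin replicate 4 was the lowest for MAP1LC3B (118.2 CPM, next 136.0) and the highest for ATG16L2 (15.05 CPM, next 12.8). Vehicle replicate 3 was the lowest for DRAM1 (0.2685 CPM, next 0.598), and vehicle replicate 10 the highest for ATG3 (47.1 CPM, next 42.0). Further single samples were nutlin replicate 1 for ULK2 (16.7 CPM, highest), nutlin replicate 8 for PIK3C3 (63.8 CPM, highest) and nutlin replicate 7 for ATG7 (23.6 CPM, lowest).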

How the results depend on the processing

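Of 800 member LFCs obtained without 1 sample at a time, 769 kept both direction and call. The direction turned for ATG7 (-0.049 to 0.027) and ATG10 (-0.067 to 0.004), which were not called with or without the sample. Without 1 sample, between 15 and 17 of the 40 genes rose and between 17 and 18 fell. With limma voom in place of edgeR, all 40 kept their direction and call. Genes that were not called turned direction with DESeq2 size factors in the edgeR fit (RB1CC1 0.008, ATG14 0.002, ATG7 0.014, ATG10 0.012), with the DESeq2 test (RB1CC1 0.008, ATG14 0.002, ATG7 0.014, ATG10 0.014), with the filterByExpr filter (RB1CC1 0.038, ATG14 0.031, ATG7 0.044, ATG10 0.041) and with protein-coding transcripts only (ATG10 0.016). With the offset for effective length, ULK2 (0.056), RB1CC1 (0.018), ATG7 (0.063) and SQSTM1 (0.171) turned, and of these ULK2 and SQSTM1 had been called lower. The cause was not tested. Between samples of equal number, the correlations of deviations lay between -0.0445 and 0.0797 in 8 pairs. The labels do not say whether equal numbers were treated together, and these correlations cannot decide it. With a replicate block, fitted to the 16 samples whose number occurs in both conditions, 15 genes rose and 16 fell, against 16 and 17 in the same samples without the block, and ATG7 turned in both (0.022 and 0.017). The block ended the calls of ATG2B, ATG4D and SQSTM1 (adjusted p = 0.188, 0.0639 and 0.0724), of which ATG2B and SQSTM1 were also lost in the same samples without it (0.148 and 0.132). Transcript usage changed for 10 genes by the F-test, and for 3 genes each with transcripts of at least 5% of their gene, with the replicate block and at 1% FDR, against 5. No share over all genes is given for these other settings, so their counts cannot be set against a background. In the mTORC1 and AMPK list 13 genes rose with the filterByExpr filter, against 6. Over all genes, that filter called 13123 of 16338, against 16275 of 27697 in the main fit. The counts of the other lists stayed within 1.5 times. The median shift of the LFC against the main fit was at most 0.077 in size under another scaling or filter. TPM levels moved by more than the SD in 56 of 80 cases with protein-coding transcripts only and in 9 after rescaling with TMM. Depth limits DRAM1 and TFEB most, with at least 4.36 and 9 estimated counts in a sample.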
